A study of Mus musculus with 2 samples.

Results

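The genes described here are 10 genes of MHC class II antigen presentation, chosen by their symbols from the 23284 genes of the authors' deposited table. They encode the chains that hold peptides (H2-Aa, H2-Ab1, H2-Eb1 and H2-Eb2), the chains of the DM and DO complexes that govern peptide exchange (H2-DMa, H2-DMb1, H2-DMb2 and H2-Oa), the invariant chain (Cd74) and the class II transactivator (Ciita). The study sequenced RNA of macrophages from infarcted hearts of C57BL/6 mice whose left anterior descending coronary artery had been ligated. It holds 2 libraries, 1 of Ly6Chi and 1 of Ly6Clo macrophages, both collected on day 3 after infarction, and the comparison asked how the populations' transcriptomes differ. Ly6C is the antigen by which classical blood monocytes are recognised. The labels name no other treatment or allele, and they give neither an age nor the number of mice behind a library.

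Class II molecules are pairs of an alpha and a beta chain that show peptides from endosomes to CD4+ T cells. The invariant chain escorts new pairs to the endosome and blocks their groove, DM removes its last fragment so that peptides can bind, and DO restrains DM. CIITA switches these genes on together: it does not bind DNA itself but docks on factors assembled at the W, X and Y boxes of their promoters. Dendritic cells and B cells carry class II constantly, while many macrophages raise it when interferon gamma induces Ciita. In C57BL/6 mice the alpha chain gene H2-Ea is defective, so the H2-Eb1 product has no partner of its own kind.

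The values are the authors' signed statistic for each gene, a score with no stated unit that compares the table's value columns. A value far from 0 marks a gene on which those columns differ, and rank 1 is the largest size. The sign could not be given to a population, since the codes of the value columns match no sample label. Results are therefore given by side, with Ly6c2, which encodes the Ly6C antigen, as a landmark at -1.78 in the authors' deposited table. A difference between 1 library and 1 library has no replicate check, so no p-value is given. Depth per library was not analysed here. In sorted bulk cells, more cells of a class II-bearing type and more RNA per cell cannot be told apart.

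All 10 genes lay on the positive side, opposite to Ly6c2, and all 10 had a statistic of at least 0.5 in the authors' deposited table. Over all genes of that table, 3.77% reached 0.5 on the positive side. At the stricter size of 1, 9 of the 10 remained, against 0.709% of all genes. Of the 10 genes with the largest size in the table, 4 were class II presentation genes, and 8 of them stood among the first 100. Their median statistic was 1.64, computed from the authors' deposited table, where the median of all genes was 0.0. The 10 genes were chosen with earlier results of these data known, so these counts are a description and not a test.

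**Figure D1:**
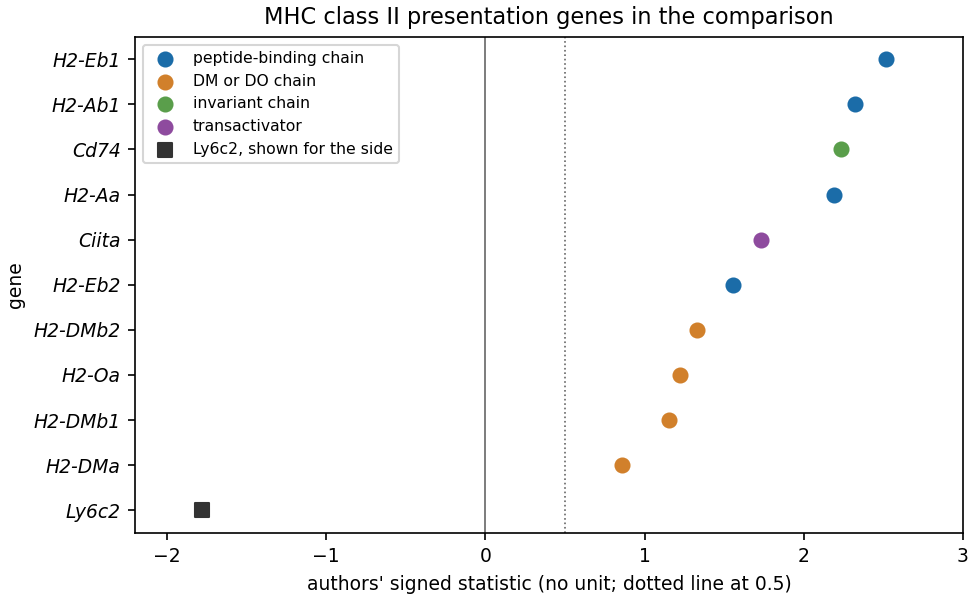
The authors' signed statistic (horizontal axis, no unit) of the 10 class II presentation genes, 1 point per gene, coloured by role, with Ly6c2 as a square. The genes run from 0.86 for H2-DMa to 2.52 for H2-Eb1, all to the right of the dotted line at 0.5, and Ly6c2 lies at -1.78.

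The peptide-binding chains led. H2-Eb1, the beta chain of the I-E molecule, stood at rank 3 of the authors' deposited table with 2.52, and only 2 genes had a higher statistic. H2-Ab1, which encodes the beta chain of I-A, followed at rank 5 of the authors' deposited table with 2.32. Its partner H2-Aa, the I-A alpha chain, reached 2.19, rank 8 of the authors' deposited table. The chains of I-A, the class II molecule that C57BL/6 cells display, therefore differed by 0.13 on the scale of the statistic. H2-Eb2, a less studied beta chain gene beside H2-Eb1, stood lower, at 1.55, rank 44 of the authors' deposited table.

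The pseudogene of the missing I-E partner did not share these values. H2-Ea-ps had 0.03 in the authors' deposited table, a value that 357 other genes of the table shared exactly. No class II presentation gene shared its value with another gene.

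Cd74, the invariant chain, stood among the peptide-binding chains at 2.24, rank 6 of the authors' deposited table. Ciita, the transactivator, reached 1.73, rank 22 of the authors' deposited table. The gene lies apart from the others, at chr16:10480014-10531064 on mm10.

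The exchange factors had the smaller values of the 10. H2-DMb2 and H2-DMb1, near copies that encode DM beta chains, had 1.33 and 1.15 in the authors' deposited table, at ranks 70 and 117. H2-DMa, the DM alpha chain, had the lowest value of the 10, 0.86, at rank 307 of the authors' deposited table. For DO, the alpha chain gene H2-Oa had 1.22 at rank 94 of the authors' deposited table. H2-Ob, the DO beta chain, is outside the chosen 10 and had 1.20 in the authors' deposited table, 0.02 below its partner. The 4 exchange factor genes ranged from 0.86 to 1.33, below the range of the 4 peptide-binding chains, 1.55 to 2.52, both computed from the authors' deposited table. The widest step between neighbours in the order was 0.46, between H2-Aa and Ciita. None of these steps has a replicate error to be set against. The table's name holds the letters WAD, the usual abbreviation of a weighted average difference, in which a gene's score grows with its expression level. No header or label states that formula, but under it part of the order would follow abundance. List medians, shares past 0.5 and values near 0 would then depend on abundance as well.

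Some of these genes share sequence with other genes, which matters because how reads were assigned to genes, and whether by strand, is not stated. Of the 50-base windows in the GENCODE transcripts of H2-DMb1, 22.7% occur unchanged in transcripts of H2-DMb2, and 21.2% of the H2-DMb2 windows occur in H2-DMb1. Reads could be split between these genes, so their separate values are uncertain. H2-Oa shared 15.5% of its windows, on either strand, with the long noncoding RNA gene BC051537 that overlaps it, and H2-DMa shared 8.43% with Brd2. By contrast, H2-Ab1, H2-Eb1, H2-Eb2 and Cd74 shared 0.0% of their windows with any other gene, and the share was 0.514% for H2-Aa and 1.46% for Ciita.

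The promoters of these genes are shown because their X and Y boxes are where CIITA's partners bind, and the members lay together on 1 side. RefSeq windows of the same assembly as mm10, GRCm38.p6, run from 250 bases before an annotated transcript start to 50 after it. Windows of 7 of the 10 genes are given: H2-Ab1 and Ciita matched none, and those of Cd74 are not reported here. They were searched on both strands for ATTGG, the core of the Y box, and for GNNACNGATG, a form of the X box in which N is any base; matches of the motifs may overlap, but those in these genes' windows did not. Stretches of 58 bases around the Y box core follow, 5′ to 3′ on the gene's strand, with the letters of each match in capitals. For H2-Eb2 and H2-DMb1, only 26 bases around the X box form are printed.
H2-Eb1: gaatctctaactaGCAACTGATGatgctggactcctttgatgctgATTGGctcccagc
H2-Eb2: tctgaccaGCAACTGATGctgctggt
H2-DMb1: tttacctaGTAACTGATGatgctagg
H2-DMb2: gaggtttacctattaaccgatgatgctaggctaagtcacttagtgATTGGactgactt
H2-Ob: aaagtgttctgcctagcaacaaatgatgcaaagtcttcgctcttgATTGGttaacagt
H2-Aa: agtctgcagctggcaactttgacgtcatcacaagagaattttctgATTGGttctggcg

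These stretches lie at chr17:34305763-34305820 for H2-Eb1, chr17:34325535-34325560 for H2-Eb2, chr17:34153089-34153114 for H2-DMb1, chr17:34145114-34145171 for H2-DMb2 and chr17:34238803-34238860 for H2-Ob, all on the plus strand. That of H2-Aa lies at chr17:34287859-34287916 on the minus strand. The sequences are RefSeq's, and each lies before the transcript start of its own window. Those of H2-Eb2 and H2-DMb2 nevertheless lie inside the RefSeq extent of their genes, which have further starts upstream, and that of H2-DMb1 lies in an exon of a GENCODE transcript of its gene.

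All 7 genes with a window given held the Y box core in at least 1 window, as did 37.4% of the 32851 windows of all genes. The X box form was found in 4 of the 7, H2-Eb1, H2-Eb2, H2-DMb1 and H2-Oa, and in 2.97% of all windows. In H2-Eb1 and H2-Eb2 the X box form began 32 bases before the Y box core, and in H2-DMb1 33 bases before it. An X box form followed by a Y box core 30 to 35 bases later on the same strand, a spacing set after these matches were seen, occurred in 14 of the 32851 windows, or 0.0426%. At the best spacing from 30 to 35 bases, H2-DMb2 and H2-Ob matched 6 of the 7 fixed letters of the X box form. H2-Aa matched 4 of 7 in the same way. The share of all windows with such partial matches was not computed. H2-Oa held both motifs, but its X box form began at -140 and its Y box core at -43 from the start. Of the H2-DMa windows, 1 held a Y box core, at -198, and the other held neither motif.

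**Figure D2:**
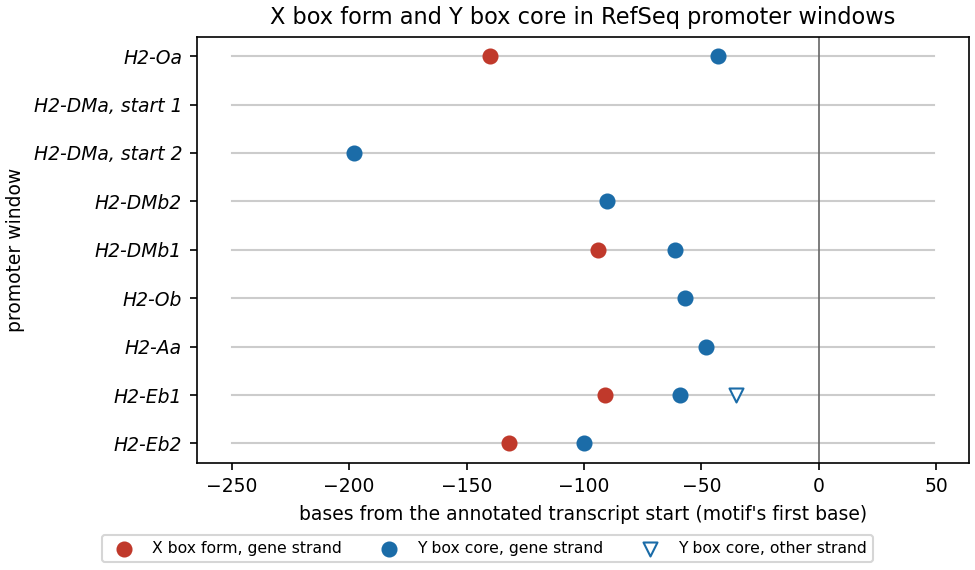
Position of each motif match (horizontal axis, bases from the annotated transcript start) in the promoter windows of 7 members and H2-Ob, 1 line per window, with filled circles for the gene's strand and open triangles for the other strand. In H2-Eb1, H2-Eb2 and H2-DMb1 the X box form lies 32 or 33 bases before the Y box core, and in H2-Oa it lies further away.

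Among the genes with a printed stretch, the match of letters did not follow the order of the statistics throughout. H2-Eb1, with all 7 letters, had the highest value, 2.52 in the authors' deposited table. H2-Aa, with 4 of 7 letters at its best spacing, had 2.19, while H2-Eb2 and H2-DMb1, with all 7, had 1.55 and 1.15. H2-Ob, with 6 letters, had 1.20. The paralogs H2-DMb1 and H2-DMb2 had 7 and 6 letters and statistics of 1.15 and 1.33 in the authors' deposited table. Because these genes share sequence, their separate values are uncertain.

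Apart from Cd74 and Ciita, the members lie in 1 stretch of chromosome 17, from 34092379 to 34341410 on mm10, about 249 kb long. RefSeq places 16 genes in or across that stretch, and 15 of them have a row in the authors' deposited table. The 9 class II genes there, the 8 members and H2-Ob, all had at least 0.86 in the authors' deposited table. The 6 others lay between -0.19 and 0.24 in the authors' deposited table, and 0 of them reached 0.5, as 3.77% of all genes did.

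The genes between the class II genes include those of class I peptide supply. Psmb9 and Psmb8, subunits of the immunoproteasome, had 0.16 and 0.09 in the authors' deposited table. Tap1 and Tap2, which together pump peptides into the endoplasmic reticulum, had 0.24 and 0.06 in the authors' deposited table. They lie between H2-DMb1, which ends at 34160229, and H2-Ob, which starts at 34238905. Brd2, a chromatin reader gene that overlaps H2-DMa, had -0.19 in the authors' deposited table. BC051537, which overlaps H2-Oa, had 0.04 in the authors' deposited table. High values in the stretch were therefore those of class II genes.

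**Figure D3:**
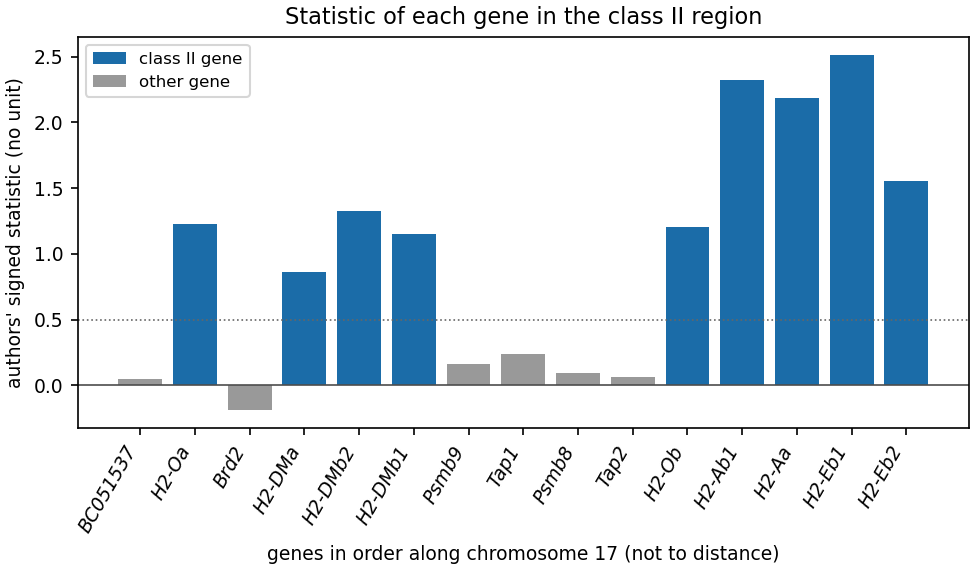
The authors' signed statistic (vertical axis, no unit) of the 15 genes with a value, in their order along chromosome 17, with class II genes in blue and other genes in grey. The 9 class II genes stand between 0.86 and 2.52, and the 6 others between -0.19 and 0.24.

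The factors that act with CIITA did not share its value. Of 16 genes of class II transcription, 9 were positive and 7 negative, 1 reached 0.5, and the median was 0.02, computed from the authors' deposited table. Among all genes, 3.77% reached 0.5 on the positive side. Rfx5, Rfxap and Rfxank, which form the X box complex, had 0.20, 0.01 and -0.05 in the authors' deposited table. Those of the Y box complex, Nfya, Nfyb and Nfyc, had -0.004, 0.15 and -0.14 in the authors' deposited table, and Creb1, whose product binds the X2 box, had 0.31. The coactivator genes Crebbp, Ep300 and Kat2b had -0.28, -0.14 and 0.16 in the authors' deposited table.

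Of the lineage factors, Irf4 stood apart at 1.56, rank 43 of the authors' deposited table. Irf8 had -0.05 and the myeloid factor gene Spi1, listed as Sfpi1, had 0.06 in the authors' deposited table. Prdm1, whose product silences Ciita in plasma cells, had -0.002 in the authors' deposited table.

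Interferon gamma is the main inducer of Ciita in macrophages. Ifng had exactly 0 in the authors' deposited table, a value that 6981 other genes shared. The part of interferon gamma in the class II values was not tested. Of the 8 genes of that pathway 1 reached 0.5, namely Jak2, a kinase bound to the receptor, at 0.60 in the authors' deposited table. For all genes the share at 0.5 or more was 3.77%. The receptor chain genes Ifngr1 and Ifngr2 had 0.43 and 0.15, and Irf1, a target that acts on Ciita, had 0.40 in the authors' deposited table. Jak1 and the feedback inhibitor gene Socs1 had -0.08 and -0.06 in the authors' deposited table. Over that list the median was 0.09, computed from the authors' deposited table.

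Most genes of the endosomal processing that prepares class II for loading lay on the other side, with Ly6c2. Of 10 genes of endosomal processing, 8 were negative and 5 were at -0.5 or below, a share to be read beside 0.988% of all genes at -0.5 or below, and their median was -0.42, computed from the authors' deposited table. Ctsl and Ctss, cathepsins that trim the invariant chain, had -1.10 and -0.53 in the authors' deposited table. Ctsb, Ctsd and Lgmn, further proteases of endosomes and lysosomes, had -0.99, -0.98 and -0.80 in the authors' deposited table. Ctsz and Ctsc had -0.31 and -0.04, and Sppl2a, which cuts the last stub of the invariant chain and is listed as 2010106G01Rik, had -0.05 in the authors' deposited table. Both positive genes of the list encode no protease: Ifi30, a reductase that opens disulphide bonds of antigens, had 0.30, and Cst3, a cathepsin inhibitor, had 0.23 in the authors' deposited table.

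Surface turnover genes of class II were mixed. Cd83, which keeps class II on the surface by opposing its ubiquitination, had 1.12 in the authors' deposited table. The tetraspanin genes Cd81, Cd82 and Cd63 had 0.995, 0.35 and -0.44 in the authors' deposited table. Both ubiquitin ligase genes of that list matched no symbol and were not analysed here.

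Genes of the costimulation list, which also holds checkpoint ligands, were all positive, as were 9399 of the 23284 genes of the table. Of the 6, 3 reached 0.5, against 3.77% of all genes. The median of the list was 0.35, computed from the authors' deposited table. Icosl, Cd40 and the checkpoint ligand gene Pdcd1lg2 had 0.94, 0.84 and 0.61 in the authors' deposited table. Among CD28 ligand genes, Cd80 had 0.10 and Cd86 0.02, and Cd274, also a checkpoint ligand gene, had 0.10, in the authors' deposited table.

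Class I presentation genes did not lie with class II. Of 20 genes, 8 were positive, 11 negative and 1 at exactly 0, and the median was -0.03, computed from the authors' deposited table. H2-Q6, a nonclassical class I gene with close paralogs, was the only 1 of the 20 to reach 0.5, at 0.68 in the authors' deposited table. The share of all genes at 0.5 or more was 3.77%. The chaperone genes Calr and Pdia3 followed in size, with -0.45 and -0.31 in the authors' deposited table.

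Markers of dendritic cells, which carry class II, lay on the same side as the members. All 13 were positive and 9 reached 0.5, with a range of 0.11 to 2.84 and a median of 1.20, computed from the authors' deposited table. Across the table, 9399 of 23284 genes were positive and 3.77% reached 0.5. Ccr7, Fscn1 and Dpp4 had 2.84, 1.8 and 1.76 in the authors' deposited table. Flt3 and Zbtb46, receptor and transcription factor of conventional dendritic cells, had 1.56 and 1.45, while Xcr1 had 0.24, in the authors' deposited table. None of these markers was at 0, though Siglech, the lowest at 0.11, shared its exact value with 131 other genes. The part of dendritic cells in the class II values was not tested.

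B cell markers did not lie with them. Of 10 markers 0 reached 0.5 on either side, the range was -0.35 to 0.32, and the median was 0.01, computed from the authors' deposited table. The shares of all genes were 3.77% on the positive side and 0.988% on the negative side. Cd22, Ebf1 and Cd79b had the largest sizes, at -0.35, 0.32 and -0.24 in the authors' deposited table. Cd79a, a chain of the B cell receptor, had 0.20 in the authors' deposited table. Pax5 had 2.42e-06, the smallest positive value, which 840 other genes shared, and Blk had exactly 0, shared by 6981 others, in the authors' deposited table.

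Fibroblast markers also lay with the members: all 10 were positive and 9 reached 0.5, against 3.77% of all genes. Their range was 0.22 to 2.14 and their median 1.08, computed from the authors' deposited table. The collagen genes Col1a1 at 2.14, Col3a1 at 2.03 and Col1a2 at 1.99 led the list in the authors' deposited table. The part of fibroblasts in the class II values was not tested.

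Macrophage markers, the check of the labelled cell type, lay on the other side. Of 10 pan-macrophage genes 9 were negative, 4 of them at -0.5 or below. Their range was -0.79 to 0.25 and their median -0.35, computed from the authors' deposited table. Across the table, 6903 of 23284 genes were negative and 0.988% were at -0.5 or below. Fcgr1 was at -0.79 and Cd68 at -0.68 in the authors' deposited table, and Csf1r was the exception at 0.25. Of 9 classical monocyte genes 7 were negative and 5 were at -0.5 or below, with a median of -0.88, computed from the authors' deposited table. Thbs1 and Chil3, listed as Chi3l3, had -1.89 and -1.86 in the authors' deposited table. Of 7 endothelial genes 1, Kdr, was at -0.5 or below, at -0.57, and the median was -0.16, computed from the authors' deposited table. Cdh5 and Vwf had -0.46 and -0.22 in the authors' deposited table. Since the statistic gives differences and not levels, it cannot show whether a marker was present in both libraries.

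**Figure D4:**
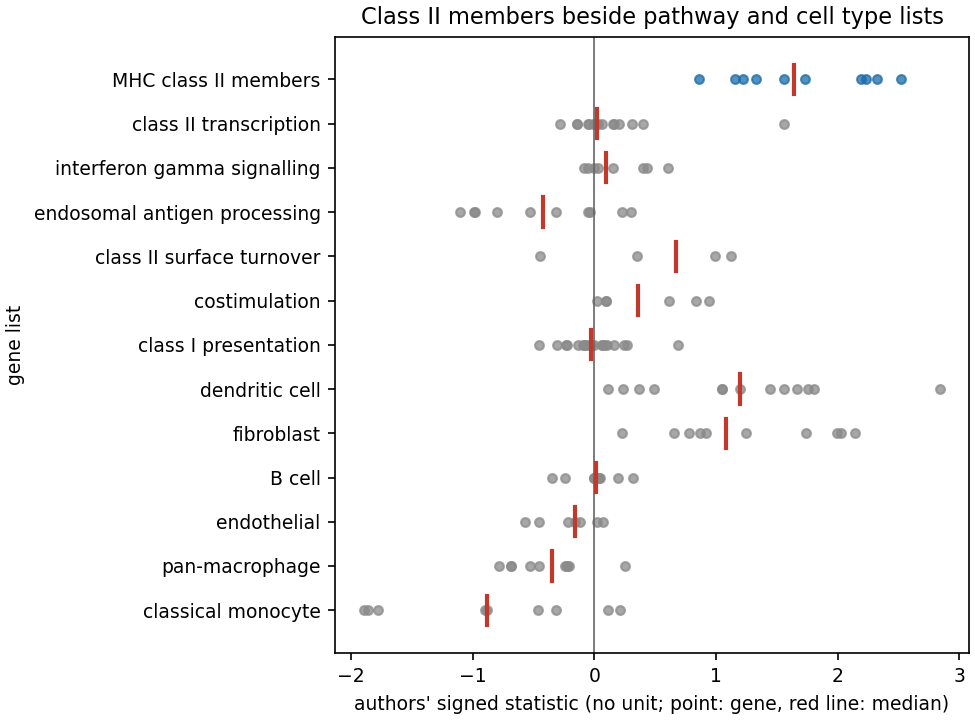
The authors' signed statistic (horizontal axis, no unit) of each gene, 1 point per gene, for the 10 members and 12 lists of pathway genes and cell type markers, with the median of each as a red line. The medians of the members, dendritic cell and fibroblast lists lie at 1.64, 1.20 and 1.08, and those of the endosomal processing, pan-macrophage and classical monocyte lists at -0.42, -0.35 and -0.88.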

How the data were processed

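RNA-seq was done on 1 Ly6Chi and 1 Ly6Clo macrophage library. The submitters' processing notes name CASAVA 1.8.2, TopHat and build mm10. Not given in the sources used here: how reads were counted, with which annotation and strand setting, and the formula of the statistic, though the table's name holds WAD, the abbreviation of weighted average difference. Per the file headers, the 1 table the authors deposited holds a statistic, a signed score per gene, and a ranking by its size. Ranks recomputed from the score, with ties averaged, matched for 23284 of 23284 genes. The 2 other value columns match no sample label and were not used, so no level per library was computed.

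Computed here were counts of genes at a size of at least 0.5 or 1, list medians, motif matches in RefSeq promoter windows and 50-base windows shared between GENCODE M21 transcripts. Counting was tested on simulated data. No test across samples was possible with 1 library per population. The members and lists were chosen with earlier results of these data known. Genes of the pathway lists were named, and of class I genes and cell type markers the 3 of largest size. Values of a few genes under this rule are not reported here. Flt3, Zbtb46, Xcr1, Siglech, Cd79a, Pax5, Blk and Csf1r were named after their values were seen. List genes were matched by symbol or an older symbol. Alternatives were another threshold, the mean, merged paralogs, genes at 0 left out and H2-Ob added. Python 3.11.15, pandas 2.3.3, NumPy 2.4.6, SciPy 1.17.1 and Matplotlib 3.10.9 were used.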

Additional observations from a re-analysis of the deposited data

How the results depend on the processing

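No paired analysis was possible because Ly6Chi and Ly6Clo macrophages gave 1 library each, and for the same reason no library could be left out. All 10 alternative values kept their direction and lay within 1.5 times the main count or within the binomial interval of the main median. That interval is taken over the genes of a list, which are not replicates of a population. It therefore gives no error of the comparison between libraries. The count of members on the positive side was 9 at a size of 1 and 11 with H2-Ob added, a choice made after seeing the data. Adding 1 gene could give no more than 11, so that alternative could not leave the range. A background of genes with a statistic other than 0 could not change the count of members. It changed only the share set beside it, which was 5.39% at 0.5 or more. The median of the members was 1.71 as a mean, 1.73 with H2-DMb1 and H2-DMb2 counted as 1 gene and 1.55 with H2-Ob. With genes at exactly 0 left out, the class I median was -0.03. The transcription, endosomal processing and costimulation lists held no gene at exactly 0, so that alternative could not move them. Depth was not analysed here, and small values may rest on few reads.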

Other observations

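The X box form followed by the Y box core at the stated spacing was found in the promoter windows of 13 genes, of which 12 have a row in the authors' deposited table. These genes were named after their values were seen. Besides H2-Eb1, H2-Eb2 and H2-DMb1, 5 of them are class I genes: H2-Q6 had 0.68, H2-Q4 0.27, H2-M3 0.06, H2-Q7 exactly 0 and H2-D1 -0.13 in the authors' deposited table. The other four had 0.26 for BC051142, 0.11 for Scaper, exactly 0 for Hrnr and -0.31 for Mtm1 in the authors' deposited table. Of the 9 genes outside the members, 1 reached 0.5 on the positive side and 0 on the negative side, against 3.77% and 0.988% of all genes. Their median was 0.06, computed from the authors' deposited table. Nlrc5, which encodes the transactivator of class I genes, had -0.02 in the authors' deposited table, and Ciita had 1.73. The part of either transactivator in these values was not tested.

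The chromosome 16 neighbours of Ciita, chosen after seeing the data, had smaller values than Ciita. Dexi, whose transcripts share 50-base windows with those of Ciita, had 0.41 in the authors' deposited table. Clec16a and Socs1 had 0.04 and -0.06 in the authors' deposited table.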
